A study of Bos taurus with 6 samples.

Results

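The miR-130 family, with its miR-301 and miR-454 branches, was examined in cumulus cells, the somatic cells that surround the bovine oocyte in the cumulus-oocyte complex (COC). Its members were taken by name, as every entry for bta-miR-130a, bta-miR-130b, bta-miR-301a, bta-miR-301b and bta-miR-454 on any arm. This gave 5 entries, 1 for each miRNA and none with an arm suffix, of 1055 entries in the count table, of which 890 are named in miRBase. Pieces of cumulus had been taken after 23 h of in vitro maturation of COCs with follicle stimulating hormone, and each oocyte was then fertilized and cultured on its own. Cells from 10 to 16 COCs were pooled by the later fate of the oocyte, and small RNAs were sequenced from 3 pools whose oocytes became blastocysts (Samples D, E and F) and 3 pools whose oocytes stayed uncleaved after insemination (Samples A, B and C). The oocytes came from slaughterhouse ovaries. The sources used here do not say how many animals a pool holds or whether the pools of a group were made on separate days. The p-values below therefore measure the spread between these pools, which may in part be technical.

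MicroRNAs guide Argonaute proteins to messenger RNAs that pair with a short seed near their 5′ end, and miRNAs with the same seed can act on largely the same targets. The members of this family share their seed and differ mainly in the bases behind it. In human and mouse cells they are known for repressing components of TGF-β and BMP signaling and the nuclear receptor PPARG, and miR-130b has been studied in bovine cumulus cells and in oocyte maturation. The members come from 3 places in the genome. RefSeq genes of the ARS-UCD2.0 assembly include all 5 precursors, and there the precursor of miR-130a stands without another miRNA within 10 kb. The precursors of miR-130b and miR-301b neighbor each other, and those of miR-454 and miR-301a both lie within SKA2, the gene of a spindle and kinetochore protein.

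Library totals ran from 2776256 counts in Sample B to 8139237 in Sample D. Values are given as counts and as CPM, which are counts per 1000000 counts of the library total, or as CPM scaled by edgeR's TMM factors so that the bulk of entries lies level between libraries. No molecular identifiers marked PCR copies, so intervals on the level in a single library (Wilson, 95%) cover counting error only. Samples E and B lay farthest from the others over the 358 tested entries, with mean Euclidean distances of 26.3 and 21.4 on the log2 scale, against 17.4 to 19.5 for the other 4. The listed cumulus and granulosa miRNAs took 484630 to 621940 CPM in blastocyst and 406800 to 494070 CPM in not-cleaved samples, nearly all of it miR-21-5p (means 547450 and 454350 CPM). Of the others, miR-132 averaged 697.9 and 665.8 CPM, miR-202 6344 and 7748 CPM and miR-212 388.8 and 449.5 CPM in blastocyst and not-cleaved samples. The listed blood cell miRNAs reached 3.66 CPM in blastocyst and 4.68 CPM in not-cleaved samples, with 2 of their 6 entries at 0 in every library. Those of the oocyte and early embryo reached 8.45 CPM in blastocyst and 5.09 CPM in not-cleaved samples, with 2 of 6 entries at 0. The striated muscle list stood at 9.95 to 43.7 CPM in blastocyst and 4.45 to 4.91 CPM in not-cleaved samples. Nearly all of this was miR-1, whose 2 entries were highest in Sample D, at 177 and 170 counts. The entries of miR-133a had at most 1 count in a library, and miR-206 had 8 counts in Sample D and 0 elsewhere. In blastocyst and not-cleaved samples in turn, the theca, stroma and smooth muscle list stood at 135.7 to 194.5 and 104.1 to 215.8 CPM. The epithelial list was at 152.1 to 207.8 and 212.3 to 245.3 CPM, and the endothelial miR-126 at 0.983 to 3.10 and 1.53 to 4.32 CPM. The part of other cells in the family's levels was not tested, and in pooled RNA fewer cells of a type cannot be told apart from less RNA per cell.

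miR-130a carried the family. Of 3168 counts of the family over all libraries, 2797 (88.3%) belonged to miR-130a, 155 (4.89%) to miR-454, 118 (3.72%) to miR-130b, 96 (3.03%) to miR-301a and 2 (0.0631%) to miR-301b. As mature miRNAs are of nearly the same length, counts were compared between members without scaling for length, although adapter ligation favors some sequences over others. The share of miR-130a in the family was 88.3%, 91.9% and 88.4% in Samples D, E and F, against 89.1%, 80.1% and 90.0% in Samples A, B and C. Sample B alone was below 88%. Its other members summed to 21.04 TMM-scaled CPM, against 8.48 to 12.7 in the other 5 libraries. miR-130a outnumbered every other member in all 6 libraries. Below it the order was not fixed. miR-454 was above miR-301a in 5 of 6 libraries and above miR-130b in 3 of 6, with a tie in Sample D, and miR-130b was above miR-301a in 4 of 6. Means over libraries of these neighbors lay closer together than their spread between libraries, with a log2 ratio of miR-130b to miR-454 of -0.43 (SD 0.91, n = 6) and of miR-301a to miR-130b of -0.20 (SD 0.84, n = 6), both with 0.5 counts added. miR-130a and miR-130b have nearly the same mature sequence, as do miR-301a and miR-301b. The sources used here do not say how reads that fit more than 1 of them were assigned, so the lower count of each of these pairs is uncertain.

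miR-130a, a miRNA known from human endothelial cells for repressing antiangiogenic homeobox genes, stood at a similar level in both groups. It had 676, 342 and 352 counts in Samples D, E and F and 780, 278 and 369 counts in Samples A, B and C. As TMM-scaled CPM these were 89.2, 96.7 and 97.2 in blastocyst samples, against 96.1, 84.8 and 94.96 in not-cleaved samples. The groups overlapped, and the highest library was 1.15 times the lowest. miR-130a averaged 94.4 ± 4.49 TMM-scaled CPM in blastocyst samples and 91.9 ± 6.24 in not-cleaved samples (SD, n = 3 each). The log2 fold change was 0.037 (SE 0.21, adjusted p = 0.996 in edgeR's quasi-likelihood test with Benjamini-Hochberg adjustment over all tested entries). The 95% interval of the difference from limma ran from -0.42 to 0.50 on the log2 scale, or from 0.748-fold to 1.41-fold. Its sign is not settled, since it was -0.060 with library totals alone and -0.0095 without Sample B. In rank, miR-130a lay between place 128 and place 142 of the 890 miRBase entries in each library.

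**Figure D1:**
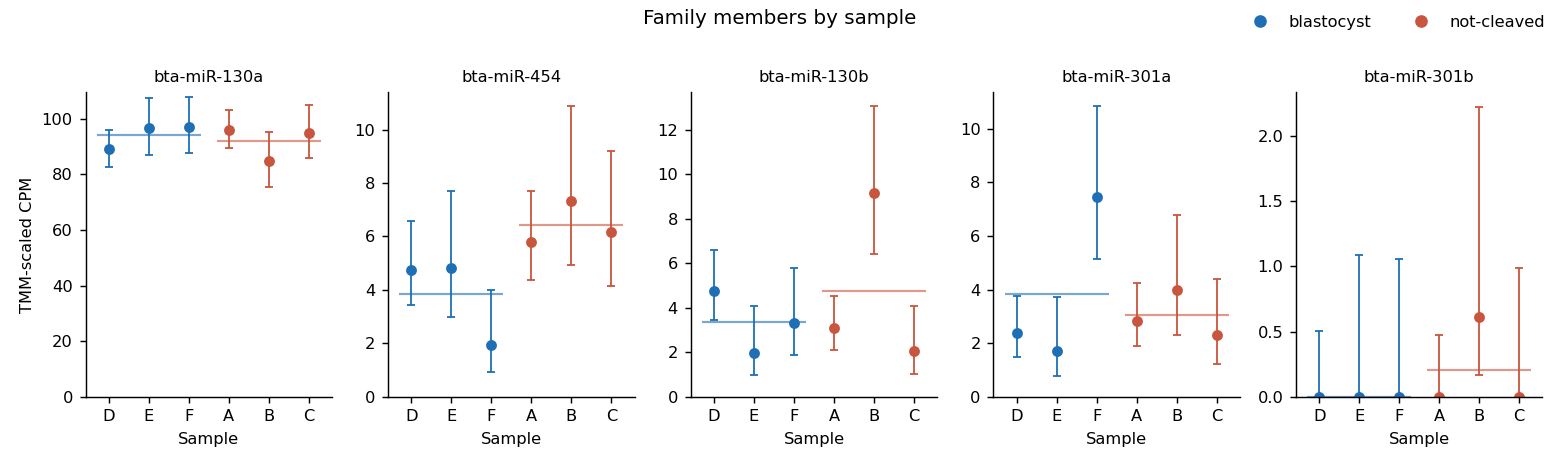
TMM-scaled CPM (vertical axes, each from 0) of the 5 family members in each library, blastocyst samples D, E and F on the left and not-cleaved samples A, B and C on the right. Bars are Wilson 95% intervals of the count and lines are group means. miR-130a lies between 84.8 and 97.2 in all 6, miR-130b is highest in Sample B, and miR-301a is highest in Sample F, where miR-454 is lowest.

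Among all tested entries miR-130a was the least variable over the 6 libraries. Its coefficient of variation in TMM-scaled CPM was 5.41%, where the median of the 358 tested entries was 27.5% and the next lowest were miR-30a-5p at 6.24% and miR-125a at 7.44%. Counting error alone gives 4.97% at these counts. The index of dispersion, the variance between libraries over that expected from counting, was 1.15 for miR-130a under TMM and 3.19 by library totals. Of the 67 other tested entries with a mean count within 2 times that of miR-130a, 0 had a lower coefficient of variation, their median was 22.1%, and their median index of dispersion under TMM was 24.8. The rank depends on the scaling. With library totals alone the coefficient was 7.53%, place 4 of 358, and with upper-quartile factors it was 27.2%, place 85 of 358, where the median of all tested entries was 38.3% and 17 of the 67 entries of like count were lower. Upper-quartile factors gave Sample E an effective size of 2332711 counts, against 3535734 by TMM, which put its miR-130a at 146.6 CPM. With each library left out in turn under TMM, the coefficient stayed at or above 3.44%, the value without Sample B. No test was run on these coefficients.

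**Figure D2:**
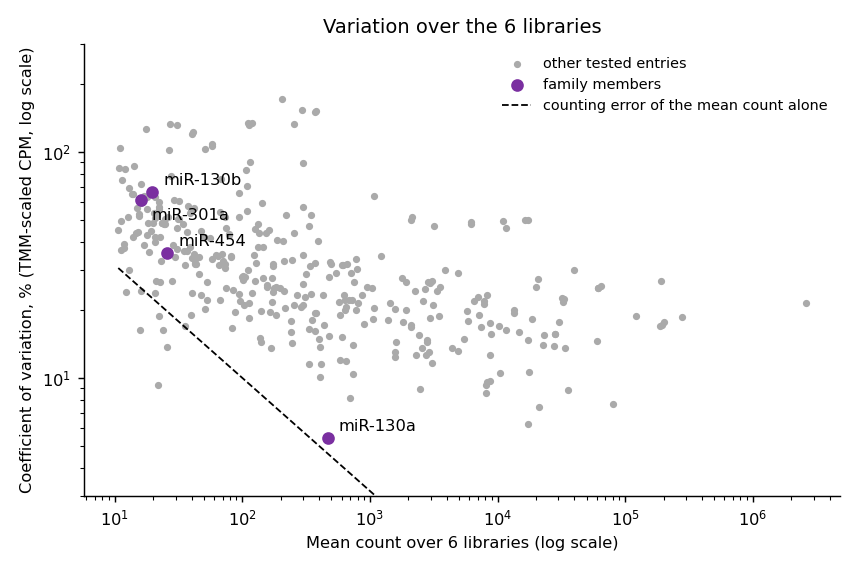
Coefficient of variation over the 6 libraries (vertical axis, %, log scale, TMM-scaled CPM) against the mean count (horizontal axis, log scale) for the 358 tested entries. Larger points are the 4 tested family members, and the dashed line is the counting error of the mean count. miR-130a, at 5.41%, is the lowest point of all and lies near the line, while miR-130b (66.4%), miR-301a (61.2%) and miR-454 (35.7%) lie above it among entries of like count.

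The members of low count varied more. miR-454 had a coefficient of variation of 35.7% (counting error alone 23.6%), and 27 of 92 tested entries of like count were lower. miR-130b had 66.4% (counting error 27.5%), and 74 of 86 entries of like count were lower. miR-301a had 61.2% (counting error 28.6%), and 56 of 74 were lower. The spread of each was smaller without 1 library. Without Sample F the coefficient was 18.4% for miR-454 and 32.0% for miR-301a, and without Sample B it was 37.1% for miR-130b. The library left out was the one that deviated most for that member, picked from the same values, so the fall is in part built in. The sum of the family, 88.3% of it miR-130a, was level under TMM. This level sum largely repeats the steadiness of miR-130a and rests on the same scaling. It was 101.1, 105.2 and 109.9 TMM-scaled CPM in Samples D, E and F, against 107.8, 105.8 and 105.5 in Samples A, B and C, a range of 1.09 times. By library totals it was 94.1, 104.8 and 107.0 CPM in blastocyst samples and 111.3, 125.0 and 95.9 CPM in not-cleaved samples, a mean of 102.0 ± 6.88 against 110.7 ± 14.6 (SD, n = 3 each). This difference of -8.75 CPM was -1.60 without Sample B, -4.83 without Sample D and -16.2 without Sample C. With miR-21-5p left out of the totals it was 24.9. miR-21-5p averaged 547450 CPM in blastocyst and 454350 CPM in not-cleaved samples. Totals without it are smaller and raise every CPM, so only the sign of 24.9 compares with -8.75. The groups of the family sum overlapped both under TMM and by library totals.

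miR-454, whose precursor lies within SKA2, was the only member whose groups stood apart. It had 36, 17 and 7 counts in Samples D, E and F, against 47, 24 and 24 counts in Samples A, B and C. As TMM-scaled CPM these were 4.75, 4.81 and 1.93 in blastocyst samples and 5.79, 7.32 and 6.18 in not-cleaved samples. Every blastocyst sample was below every not-cleaved sample. miR-454 averaged 3.83 ± 1.64 TMM-scaled CPM in blastocyst samples and 6.43 ± 0.794 in not-cleaved samples (SD, n = 3 each). Groups that did not overlap were found for 1 of the 4 tested members and for 34 of all 358 tested entries (9.5%). The separation was also present in CPM of library totals, but with upper-quartile factors the groups overlapped, at 1.94 to 7.29 CPM in blastocyst and 4.72 to 6.95 CPM in not-cleaved samples. The log2 fold change was -0.73 (SE 0.47, adjusted p = 0.993 in edgeR's quasi-likelihood test, unadjusted p = 0.168), place 42 of 358 by p. The limma interval of the difference ran from -1.87 to 0.32. Without Sample F, which had the lowest value, the log2 fold change was -0.41. Counting intervals of single libraries were wide, from 0.911 to 3.88 CPM for the 7 counts of Sample F and from 5.81 to 12.9 CPM for the 24 of Sample B.

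miR-301a, which in human cells raises NF-κB activity by repressing its inhibitor NKRF, lies beside miR-454 in SKA2 and departed from it in Sample F. It had 18, 6 and 27 counts in blastocyst samples D, E and F, and 23, 13 and 9 counts in not-cleaved samples A, B and C. The TMM-scaled CPM were 2.37, 1.70 and 7.45 in blastocyst samples, against 2.83, 3.96 and 2.32 in not-cleaved samples. Sample F stood above the other 5, whose values of both groups overlapped. The means were 3.84 ± 3.15 in blastocyst samples and 3.04 ± 0.843 in not-cleaved samples (SD, n = 3 each). The log2 fold change of miR-301a was 0.33 (SE 0.66, adjusted p = 0.993 in edgeR's quasi-likelihood test), with a limma interval from -1.36 to 1.53, and it turned to -0.53 without Sample F.

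Within the SKA2 pair, Sample F had the highest miR-301a and the lowest miR-454 of all libraries in TMM-scaled CPM. Counting intervals of either member alone did not set it apart from every library. For miR-454 the interval of Sample F (0.936 to 3.99) overlapped those of Samples D (3.43 to 6.57) and E, but not those of Samples A, B and C. For miR-301a its interval (5.12 to 10.8) overlapped that of Sample B (2.32 to 6.78) and no other. miR-301a made up 79.4% of the pair's 34 counts in Sample F (Wilson 95% interval 63.2% to 89.7%), against 33.3% and 26.1% in the other blastocyst samples D and E and 32.9%, 35.1% and 27.3% in the not-cleaved samples A, B and C. Over the other 5 libraries together it made up 69 of 217 counts, or 31.8% (26.0% to 38.3%). The counting interval of this percentage in Sample F did not reach that of any other library. It does not cover the spread between pools, however, and Sample F was singled out after its values were seen. Deviations of a library were taken on log2 CPM with a prior count of 2, which shrinks ratios at low counts. On this scale Sample F had 2.83 times the miR-301a and 0.377 times the miR-454 of the median of the other 5. Of the 358 tested entries, 16 (4.47%) deviated in Sample F at least as far as miR-301a in either direction, and 3 (0.838%) in the same direction. For miR-454 these were 18 (5.03%) in either direction and 15 (4.19%) in the same direction. The entries were of any mean count, and the directions were those seen in the data. The departure of Sample F compares libraries, not fates, and the 2 other blastocyst samples did not share it.

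**Figure D3:**
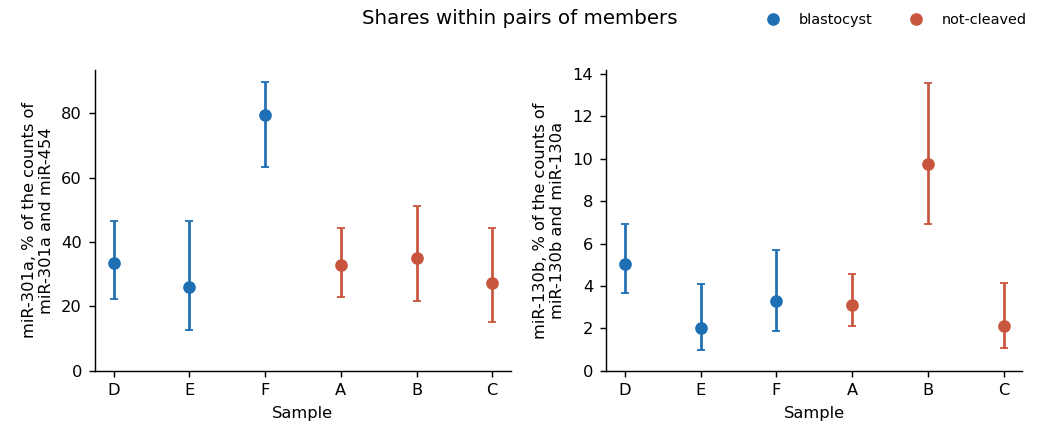
Left: miR-301a as a percentage of the counts of miR-301a and miR-454. Right: miR-130b as a percentage of the counts of miR-130b and miR-130a. Points are libraries, blastocyst samples D, E and F before not-cleaved samples A, B and C, and bars are Wilson 95% intervals. Sample F stands apart on the left at 79.4%. Sample B is highest on the right at 9.74%, with an interval that just overlaps that of Sample D.

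miR-130b was low in 5 libraries and higher in Sample B. It had 36, 7 and 12 counts in Samples D, E and F, against 25, 30 and 8 counts in Samples A, B and C. The TMM-scaled CPM were 4.75, 1.98 and 3.31 in blastocyst samples and 3.08, 9.15 and 2.06 in not-cleaved samples. All blastocyst values lay between the lowest and the highest not-cleaved value, apart from Sample E, which was the lowest of all. The means were 3.35 ± 1.39 in blastocyst samples and 4.76 ± 3.83 in not-cleaved samples (SD, n = 3 each). The log2 fold change of miR-130b was -0.45 (SE 0.68, adjusted p = 0.993 in edgeR's quasi-likelihood test), with a limma interval from -1.79 to 1.22. Sample B decided its sign, as it was 0.38 without that library.

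In Sample B, the shallowest library, the raw level of miR-130b was 10.8 CPM (Wilson 95% interval 7.57 to 15.4), against at most 4.42 CPM (3.195 to 6.123, Sample D) in the others. In TMM-scaled CPM the intervals of these 2 libraries overlapped, at 6.41 to 13.1 in Sample B and 3.43 to 6.57 in Sample D. On log2 CPM with a prior count of 2, miR-130b was 2.74 times as high in Sample B as the median of the other 5 libraries. Of the 358 tested entries, 21 (5.87%) were raised there by at least as much, and 22 (6.15%) deviated as far in either direction. Whether miR-130b moved in the same direction as miR-130a, its near-identical relative, depended on the scaling. In Sample B miR-130a was at its lowest under TMM (84.8), while by library totals both were at their highest there, miR-130a at 100.1 CPM. miR-130b made up 9.74% of the counts of both in Sample B (6.91% to 13.6%) and 3.38% (2.75% to 4.14%) in the other 5 together. Single libraries of these 5 ran from 2.01% to 5.06%. This pair was compared after its values were seen.

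miR-301b, the cluster neighbor of miR-130b, was at the limit of detection. It had 2 counts in Sample B, or 0.720 CPM (0.198 to 2.63), and 0 in every other library. A count of 0 allows up to 3 counts, which is 0.369, 0.845 and 0.806 CPM in the blastocyst samples D, E and F and 0.381 and 0.701 CPM in the not-cleaved samples A and C. Both groups were thus at or under this floor, no fold change is given, and miR-301b did not pass the expression filter. The only library with counts of miR-301b was also the one with the most miR-130b in CPM. miR-130b exceeded miR-301b in 6 of 6 libraries.

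Of the 4 members tested, 0 passed edgeR's quasi-likelihood test between blastocyst and not-cleaved samples (adjusted p threshold 0.05), and 0 had an unadjusted p under 0.05. Of all 358 tested entries 0 passed (0.0%), while 10 had an unadjusted p under 0.05. DESeq2, edgeR's exact test and limma each called 0 entries as well, with 7, 4 and 9 at an unadjusted p under 0.05. Point estimates were higher in blastocyst samples for 2 members and lower for 2, with a median of -0.21, beside 165 higher and 193 lower with a median of -0.02 over all tested entries. The intervals differ in what they leave possible. For miR-130a a difference of 1.5-fold in either direction lies outside the limma interval under TMM, although with upper-quartile factors the edgeR estimate was 0.41 (SE 0.34), whereas for miR-454 (0.273-fold to 1.25-fold), miR-130b (0.290-fold to 2.34-fold) and miR-301a (0.390-fold to 2.88-fold) changes of 2-fold or more in at least 1 direction lie within it.

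**Figure D4:**
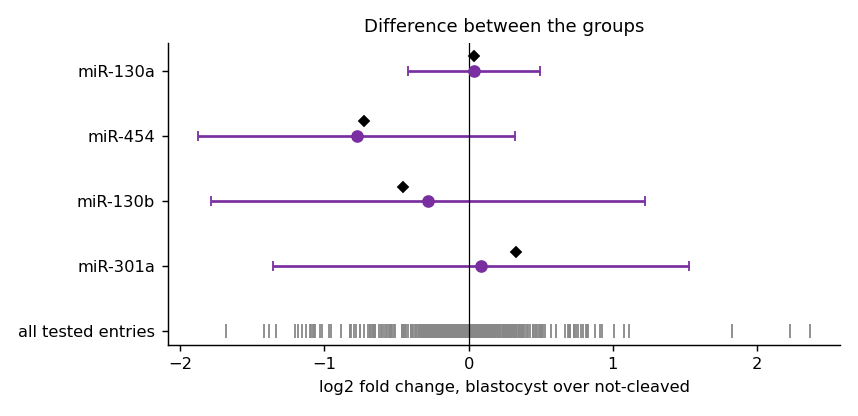
Log2 fold change of blastocyst over not-cleaved samples (horizontal axis) for the 4 tested members, with 95% intervals from limma (circles and bars) and the edgeR estimates (diamonds). Ticks at the bottom are the edgeR estimates of all 358 tested entries. All 4 intervals include 0, and that of miR-130a, from -0.42 to 0.50, is the narrowest.

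Likeness of pattern over the libraries was measured by the SD of the log2 ratio of 2 miRNAs over the 6 libraries. Between members it ran from 0.65 (miR-130a and miR-454) to 1.16 (miR-454 and miR-301a, the pair in SKA2). The 1.16 rests on Sample F. Without that library, an alternative chosen after seeing the data, the SKA2 pair had the lowest SD between members, 0.23, and the others ran from 0.29 (miR-130a and miR-454) to 0.92 (miR-130a and miR-130b). Sample F was left out because of this pair's own values, so the fall of its SD is in part built in. Counting error was not taken out of these SDs, and both members of the pair had few counts. Without Sample B the SKA2 pair stayed at 1.29, while miR-130a and miR-130b went from 0.82 to 0.50. Of 256 entries outside the family with a mean of at least 50 counts, the 3 nearest to miR-130a were miR-30e-5p (SD 0.091), miR-1271 (0.10) and an entry of miR-450a (0.10), with a median of 0.35 over all 256. As the level of miR-130a hardly varied, these are other miRNAs of steady level. They were at 1336 to 1788, 436 to 521 and 72.7 to 88.7 CPM. Nearest to miR-454 were miR-2419-5p (0.20), miR-331-5p (0.30) and miR-30b-3p (0.37), with a median of 0.71. Nearest to miR-130b were miR-671 (0.41), miR-2440 (0.46) and miR-876 (0.50), with a median of 0.85, and nearest to miR-301a were miR-33a (0.46), miR-2313-5p (0.47) and miR-182 (0.50), with a median of 0.77. The nearest of so many entries are close in part by selection, and all values share the same 6 libraries and their scaling.

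Other miRNAs have seeds that overlap the seed of this family by most of its bases. These are miR-148a, miR-148b and miR-152, which repress the DNA methyltransferase DNMT1, and miR-19a and miR-19b of the miR-17-92 cluster. Most of them were more abundant than miR-130a in these cells. miR-148a had 61.0 to 118.9 times its counts in a library, miR-148b 14.7 to 24.8 times and miR-152 4.35 to 6.74 times, while miR-19a had 0.746 to 0.953 times. miR-19b has 2 entries, which had 1.38 to 2.40 times and 1.30 to 2.23 times the counts of miR-130a. They were not summed here, so either entry alone understates the level of miR-19b. Mean levels were 8184 ± 2931 CPM in blastocyst and 8046 ± 1733 CPM in not-cleaved samples for miR-148a, and 77.0 ± 9.18 and 84.6 ± 16.4 CPM for miR-19a (SD, n = 3 each). Of the 6 entries with overlapping seeds 0 passed the test. Point estimates in blastocyst samples were higher for 4, of which 2 were the entries of miR-19b, and lower for 2. The median log2 fold change of the 6 was 0.09, against -0.21 in the family and -0.02 over all entries. Their coefficients of variation were 10.1% for miR-19a, 13.5% for miR-152, 17.5% for miR-148b, 19.9% and 21.4% for the entries of miR-19b and 30.1% for miR-148a.

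Among 20 miRNAs studied in follicular somatic cells, a list that holds no member of the family, 22 of 24 entries were tested and 0 passed, with 11 higher and 11 lower point estimates and a median log2 fold change of 0.04. An unadjusted p under 0.05 was found for 3 of them. These were both entries of miR-101, known for repressing EZH2, a histone methyltransferase, with log2 fold changes of 0.51 and 0.53, and miR-221, which represses the cell cycle inhibitor p27, with -0.59 (adjusted p = 0.993 for each in edgeR's quasi-likelihood test). The gonadal miR-202 was at 6344 ± 360.0 CPM in blastocyst and 7748 ± 1127 CPM in not-cleaved samples (SD, n = 3 each), far above miR-130a in level. Its coefficient of variation was 8.87% under TMM, against 5.41% for miR-130a. By library totals it was 15.2%, against 7.53% for miR-130a.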

How the data were processed

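Libraries were made by the authors with a NEBNEXT kit, amplified by 15 cycles of PCR, selected for fragments of 15 to 40 bp and sequenced on an Illumina NextSeq 500. miRNAs were named by miRBase Release 20. Raw counts for each entry, as whole numbers, were deposited by the authors. For the aligner, the counting tool and the build: not given in the sources used here. Column names give a letter and the fate, and these were not tied to single sample labels. The deposited log2 values of the most variable miRNAs, which hold no family member, and the deposited comparison of the groups (fold changes, p-values and group means) were not used.

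Tests used DESeq2 1.42.0, limma 3.58.1 and edgeR 4.0.16 under R 4.3.3. Summaries and plots used matplotlib 3.10.9, scipy 1.17.1, pandas 2.3.3 and numpy 2.4.6 under Python 3.11.15. The filter was filterByExpr (358 of 1055 entries kept). These were scaled by TMM, tested together by edgeR's quasi-likelihood test and adjusted by Benjamini-Hochberg at 0.05. The SE is the absolute log2 fold change over the square root of F. Intervals of differences came from limma-trend on log2 CPM with a prior count of 2. The test was tried on simulated counts. Library totals ran from 2776256 to 8139237 counts, which limits members of few counts most. Alternatives were DESeq2, upper-quartile factors, library totals, leaving out miR-21-5p, other filters, the exact test and leaving out libraries. Named miRNAs were the members, miRNAs of the same cluster, 5 miRNAs with overlapping seeds and the 3 nearest in pattern to each tested member. miR-30a-5p, miR-125a and the named miRNAs of the follicular list were named after their values were seen. The members and lists were chosen with earlier results of these data known.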

Additional observations from a re-analysis of the deposited data

How the results depend on the processing

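No member passed the threshold under any alternative, and the number of calls over all entries was 0 throughout (edgeR, DESeq2, edgeR's exact test and limma). The log2 fold change of miR-130a turned to -0.060 with library totals alone and -0.039 without Samples B and E together. With 1 library left out it lay between -0.0095 (Sample B) and 0.093 (Sample A). That of miR-130b turned to 0.64 without Samples B and E together and ran from -0.82 (without Sample C or D) to 0.38 (without Sample B) with 1 library left out. That of miR-301a ran from -0.53 (without Sample F) to 0.67 (without Sample E) with 1 library left out and was 0.89 without Samples B and E together. That of miR-454 was negative in all 14 alternatives that gave a value, from -0.91 to -0.36. The median over all entries was 0.32 with upper-quartile factors and -0.13 with library totals. Upper-quartile values were 0.41 for miR-130a, -0.36 for miR-454, -0.23 for miR-130b and 0.59 for miR-301a. Adjusted p of members over all settings ran from 0.809 (miR-454 without Sample E, edgeR) to 1 (edgeR's exact test). A minimum of 10 counts in every library kept only miR-130a. The family's level, blastocyst minus not-cleaved samples, differed by -8.75 CPM with library totals. With 1 library left out this difference ran from -16.2 (Sample C) to -1.60 (Sample B). It was 24.9 CPM when miR-21-5p was left out of the totals, which raises every CPM, so this value compares with -8.75 in sign only. No paired analysis was possible because the labels give no replicate numbers that link the pools. Leaving out 1 pool leaves 2 in its group. Members other than miR-130a had 0 to 47 counts in a library, which limits every statement on them.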
